A study of Homo sapiens with 2 samples.

Results

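The distal end of the long arm of human chromosome 15, from 96 Mb to the last deposited peak at 101966251 (hg38), was examined for acetylation of histone H4 at lysine 5 (H4K5ac) in FaDu cells kept in normoxia or hypoxia. The members are all deposited peaks on chromosome 15 whose summit lies at or above position 96000000. The rule took 468 of the 120033 normoxia peaks and 1110 of the 258195 hypoxia peaks, 1578 of 378228 in both lists. The region was chosen by its numbers of peaks in these same lists, so the numbers of all peaks and of strong peaks in it are a description and support nothing by themselves. The region holds the genes for the nuclear receptor NR2F2, the growth factor receptor IGF1R, the transcription factor MEF2A and the secreted protease ADAMTS17, among 25 protein-coding genes.

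FaDu, an established cell line from a human head and neck carcinoma, was profiled for H4K5ac by chromatin immunoprecipitation and sequencing (ChIP-seq) with 75 bp single-end reads. One library came from cells in normoxia and 1 from cells held at 1% oxygen for 18 h. H4K5ac is the target on both sample labels, although the series' design text names another histone mark, and the labels are followed here. The culture protocol also describes METTL4 knockdown, which no label assigns to either library. With 1 library per condition no test of hypoxia was possible, and all intervals below are 95% intervals that cover counting error only. More cells carrying the mark and more mark per cell cannot be told apart in such pooled cultures.

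Acetylation of lysine residues in the tail of histone H4 removes their positive charge and is associated with open chromatin. H4K5ac is placed by histone acetyltransferases, is read by bromodomain proteins, and is found at active promoters and enhancers and along parts of transcribed genes. Under low oxygen the hypoxia-inducible factors (HIFs) are stabilised and bind a short core motif in DNA, written ACGTG or GCGTG.

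The 250 bases before the start site are shown for 6 genes on which the description turns. IGF1R, MEF2A and ADAMTS17 are the large genes named above. PCSK6 had the largest ratio of hypoxia to normoxia peaks among spans with over 20 normoxia peaks, PGPEP1L had a start site marked in hypoxia alone, and SNRPA1 carried the strongest peak of the region in both lists. The sequences are those of RefSeq (GRCh38.p14), 5′ to 3′ on the strand of the gene, in lower case with ACGTG and GCGTG on either strand in capitals (CACGT and CACGC where they lie on the other strand; overlapping matches run together).
IGF1R, chr15:98648289-98648538, plus strand: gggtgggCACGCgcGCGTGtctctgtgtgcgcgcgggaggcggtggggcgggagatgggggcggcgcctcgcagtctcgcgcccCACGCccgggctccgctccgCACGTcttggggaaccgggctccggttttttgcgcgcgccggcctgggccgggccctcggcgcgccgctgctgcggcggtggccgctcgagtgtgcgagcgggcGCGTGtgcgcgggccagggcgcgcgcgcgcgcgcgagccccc
MEF2A, chr15:99565167-99565416, plus strand: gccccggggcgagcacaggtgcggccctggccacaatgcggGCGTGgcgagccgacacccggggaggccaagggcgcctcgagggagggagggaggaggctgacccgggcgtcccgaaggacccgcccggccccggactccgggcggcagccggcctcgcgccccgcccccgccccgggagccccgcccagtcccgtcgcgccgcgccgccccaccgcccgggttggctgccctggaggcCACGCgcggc
ADAMTS17, chr15:100341976-100342225, minus strand: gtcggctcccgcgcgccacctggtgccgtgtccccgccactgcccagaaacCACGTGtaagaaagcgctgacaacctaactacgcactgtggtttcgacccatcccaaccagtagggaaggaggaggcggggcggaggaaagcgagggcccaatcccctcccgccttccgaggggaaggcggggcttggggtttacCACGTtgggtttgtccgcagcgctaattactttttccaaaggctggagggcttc
PCSK6, chr15:101489708-101489957, minus strand: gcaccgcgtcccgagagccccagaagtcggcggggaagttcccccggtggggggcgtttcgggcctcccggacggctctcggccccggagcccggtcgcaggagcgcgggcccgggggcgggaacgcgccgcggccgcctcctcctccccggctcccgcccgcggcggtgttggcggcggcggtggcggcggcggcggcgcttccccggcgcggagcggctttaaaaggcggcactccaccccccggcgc
PGPEP1L, chr15:99005657-99005906, minus strand: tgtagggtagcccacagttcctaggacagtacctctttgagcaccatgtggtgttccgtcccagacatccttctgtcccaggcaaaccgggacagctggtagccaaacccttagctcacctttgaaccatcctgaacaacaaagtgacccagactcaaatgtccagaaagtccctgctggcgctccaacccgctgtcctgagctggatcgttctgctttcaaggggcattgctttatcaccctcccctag
SNRPA1, chr15:101295249-101295498, minus strand: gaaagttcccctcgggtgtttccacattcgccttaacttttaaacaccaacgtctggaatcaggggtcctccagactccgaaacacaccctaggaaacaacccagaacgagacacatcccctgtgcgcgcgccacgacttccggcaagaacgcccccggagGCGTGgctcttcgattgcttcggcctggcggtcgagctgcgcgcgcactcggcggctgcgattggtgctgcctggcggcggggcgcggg

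The windows of MEF2A, PCSK6 and SNRPA1 were covered over all 250 bases by a peak of each list. The IGF1R window holds 1 ACGTG and 4 GCGTG matches, and no peak of either list covered any of it. The ADAMTS17 window holds 3 ACGTG matches, of which 2 form the palindrome CACGTG, and the deposited peaks covered its last 65 bases in normoxia and 72 in hypoxia. The PGPEP1L window has no match, and only the hypoxia list covered part of it, 103 bases. At least 1 of the 2 motifs was present in 14 of the 24 coding start windows of the region (58.3%), against 50.4% of 15813 coding windows and 43.2% of all 35116 windows of the same length. The windows of the region also had more G and C, with a median of 70% against 62.4% over all coding windows. A match describes the letters and is not evidence of a bound site.

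A mature microRNA also lies under peaks of both lists. hsa-miR-1469 (chr15:96333261-96333282, plus strand) sits within the span of NR2F2, and is shown with its seed, bases 2 to 8, in capitals.
hsa-miR-1469: cUCGGCGCggggcgcgggcucc
It was covered by 1 normoxia peak with a fold of 2.34 (−log10 q of 9.14) and by 1 hypoxia peak with a fold of 3.56 (−log10 q of 26.5). The fold enrichment and the −log10 q of each peak are the authors' values, and each was used only to describe, rank or filter peaks within its own list. The region's MIR4714 and MIR6859-3 had no peak of either list within 1000 bp.

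Distal 15q carried more and more closely spaced H4K5ac peaks in the hypoxia list than in the normoxia list. It held 468 normoxia and 1110 hypoxia peaks, or 78.4 and 186 per Mb, a ratio of 2.37 (2.13 to 2.65). The covered length was 240 kb and 458 kb (ratio 1.91), with a mean width of 512 bp in normoxia and 412 bp in hypoxia. The narrowest peak of the whole list was 245 bp wide in normoxia and 215 bp in hypoxia, so the lists differ in their smallest width. The part of this in the widths, numbers, spacing and overlaps compared here was not tested. The same ratio of peak numbers was 2.28 (2.20 to 2.37) over the rest of chromosome 15 and 2.15 (2.14 to 2.16) over the rest of the genome. The interval of the region overlaps that of the rest of chromosome 15 and its lower bound lies below the genome value, so the number of all peaks did not set the region apart beyond counting error. Among 459 windows of 6 Mb with at least 50 normoxia peaks the region ranked 123 by ratio, 39 by normoxia and 17 by hypoxia peak number.

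Strong peaks, those with a −log10 q of at least 10, differed more between the lists here than over the rest of the chromosome. Their number went from 108 in normoxia to 276 in hypoxia, a ratio of 2.56 (2.04 to 3.22). Over the rest of chromosome 15 the numbers were 976 and 1486, a ratio of 1.52 (1.40 to 1.65), and over the rest of the genome the ratio was 1.62 (1.60 to 1.65). Among the 6 Mb windows the region ranked 33 by the ratio of strong peaks. The ratio depended on where strong was set. It was 3.27 (2.79 to 3.84) for a −log10 q of at least 5, against 2.26 over the rest of the genome, and 1.65 (1.23 to 2.23) for at least 20, against 1.55. At the strictest of these limits the region therefore lay within counting error of the rest of the genome. When the hypoxia list was limited to as many of its strongest peaks as the normoxia list holds, 677 remained in the region against 468 in normoxia, a ratio of 1.45 (1.28 to 1.63), with 0.998 over the rest of the genome.

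The local background of the peaks was high in distal 15q in both lists. The background is the number of reads the peak caller expected at a summit, recovered here from the deposited fold and p-value. Whether it came from an input control or from nearby reads of the same library is not stated. It may therefore include signal of the mark itself where peaks lie close together, and it is not a separate measure of noise. Its median was 10.6 reads (9.85 to 11.7) over the normoxia peaks and 10.0 (9.24 to 10.7) over the hypoxia peaks, 2.10 and 2.40 times the medians of the whole lists, 5.07 and 4.17 reads. Median folds were low in the same peaks, 2.92 and 3.18, against 3.36 and 3.5 over the rest of the genome. Of the peaks, 28 normoxia peaks (5.98%) and 157 hypoxia peaks (14.1%) had the lowest background of their list (3.13 and 3.24 reads), against 18.9% and 34.4% over the rest of the genome. At a higher background a given fold reaches a smaller q, and the part of the background in the numbers of strong peaks was not tested.

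The regions distal 14q and 11q13, which also had a high background, gave values of the same kind. They were chosen with earlier results of these lists known and are not a sample of all regions with a high background. In distal 14q (70 to 98 Mb) the background was 1.63 times the list median in normoxia and 1.89 times in hypoxia, and strong peaks went from 492 to 1435, a ratio of 2.92 (2.63 to 3.24). In 11q13 (68 to 73 Mb) the background was 9.27 and 13.3 times the list medians, and strong peaks went from 179 to 593, a ratio of 3.31 (2.80 to 3.94). The ratios of all peaks there, 2.11 and 2.22, were near that of distal 15q. Distal 15q was thus not alone in this pattern, and the differences among these 3 regions were not tested.

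Divided into 24 bins of 250 kb, distal 15q held more hypoxia than normoxia peaks in every bin. No bin had fewer, and only 3.55% of all genome bins with a peak did, so this does not set the region apart. The ratio of (hypoxia peaks + 1) to (normoxia peaks + 1) was at least 2 in 19 of 24 bins, against 56.7% of the genome's bins. This count depended on the lists, since 5 bins reached the ratio with the hypoxia list limited to the length of the normoxia list (11.8% of the genome's bins), and 10 with strong peaks alone (31.7%). It ranged from 1.52 at 99.25 to 99.5 Mb (26 normoxia and 40 hypoxia peaks) to 15 at 96.75 to 97 Mb (0 and 14). The median bin of the region held 19 normoxia and 41 hypoxia peaks, against 9 and 19 genome-wide. Strong peaks were more numerous in hypoxia in 18 bins, equal in 6 and fewer in 0. The genome-wide share of bins with more strong hypoxia peaks was not computed.

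The peaks were not spread evenly along the region, which is described here in stretches of bins set after the values were seen. From 96 to 96.5 Mb, around NR2F2, there were 33 normoxia and 72 hypoxia peaks, 9 and 16 of them strong. From 97.75 to 99.25 Mb, which holds ARRDC4 and IGF1R, there were 107 and 269 (ratio 2.51, 2.00 to 3.18), with 26 and 48 strong. From 99.25 to 100 Mb, around MEF2A, there were 70 normoxia peaks and 1.79 times as many hypoxia peaks (1.32 to 2.43), with 13 and 23 strong. The densest stretch was 100 to 101.75 Mb, from the body of ADAMTS17 to TARS3, with 248 and 576 peaks (ratio 2.32, 2.00 to 2.71). Here strong peaks went from 60 to 182, a ratio of 3.03 (2.25 to 4.13), so this stretch held 182 of the region's 276 strong hypoxia peaks. Beyond 101.75 Mb there were 10 normoxia and 26 hypoxia peaks (ratio 2.60, 1.21 to 6.04), with 0 and 7 strong. The largest single difference lay in the bin from 101.25 to 101.5 Mb, with 28 normoxia and 103 hypoxia peaks (ratio 3.68, 2.40 to 5.80).

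The background also changed along the region. Between 100 and 101.75 Mb the normoxia peaks had a median of 14.5 reads (2.86 times the list median) and the hypoxia peaks 17.9 (4.29 times). No normoxia peak and 4 hypoxia peaks of this stretch were at the lowest background. In the stretch around MEF2A the medians were 4.14 and 4.62 reads, near those of the lists, and the strong peak ratio was 1.77 (0.859 to 3.80). From 97.75 to 99.25 Mb the medians were 8.45 reads over the normoxia and 5.55 over the hypoxia peaks, with a ratio of 0.95 (0.858 to 1.04) in the 64 pairs of peaks matched 1 to 1, and the strong peak ratio was 1.85 (1.12 to 3.10). Beyond 101.75 Mb the medians were 5.6 and 6.5 reads, 1.11 and 1.56 times the list medians. Strong peaks there numbered 0 in normoxia and 7 in hypoxia, 3 of them without overlap, so no ratio can be formed. The intervals of the strong peak ratios given overlap, and differences between stretches were not tested.

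**Figure D1:**
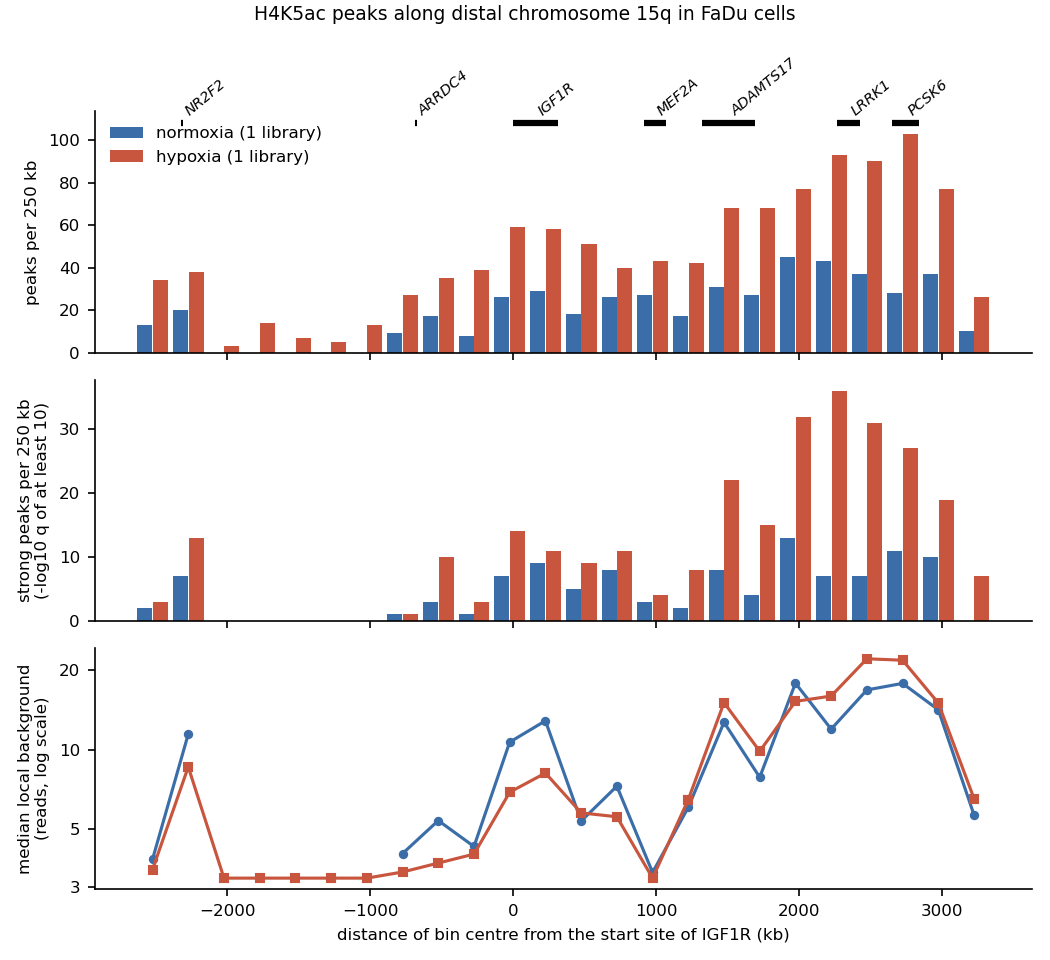
Numbers of all peaks (top), of strong peaks (middle) and the median local background in reads on a log scale (bottom) in 24 bins of 250 kb, plotted by distance from the IGF1R start site in kb; blue is normoxia, red is hypoxia, 1 library each, and black bars are gene spans. Hypoxia bars are higher in all 24 bins of the top panel, and the bin with most hypoxia peaks holds 103 of them against 28 in normoxia.

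A long stretch between NR2F2 and ARRDC4 had no normoxia peak. The gap ran from 96415173 to 97892082 (1477 kb), and it contained 64 hypoxia peaks, none of them strong. Bins with hypoxia peaks and no normoxia peak made up 8.84% of the genome's bins that held a peak, and 5 of the 24 here, all within this gap. Those 5 bins held 3, 14, 7, 5 and 13 hypoxia peaks, 42 together, of which 40 were at the lowest background. Over the gap the hypoxia pileups ran from 10 to 25 reads with a median of 15, and −log10 q from 1.69 to 8.93. Among peaks at the lowest background the lowest pileup was 9 reads in both whole lists, and the median was 13 in normoxia and 14 in hypoxia. Read coverage below the calling threshold is not in the lists, so the normoxia signal at these sites was not measured. The next longest normoxia gaps were 158 kb near the chromosome end, with 4 hypoxia peaks, and 73.6 kb upstream of IGF1R, with 9.

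By gene span, peaks were more numerous in hypoxia for 20 of the 25 protein-coding genes, equal for 4 and fewer for 1. The share of all coding spans with more hypoxia peaks was not computed. The ratio of (hypoxia peaks + 1) to (normoxia peaks + 1) was at least 2 for 15 of 25 genes (60.0%), against 39.3% of the 17810 coding spans with a peak in either list. Its median was 2.00 in the region and 1.5 over all spans. With lists of equal length 8 genes reached a ratio of 2 (9.09% of all spans), and with strong peaks alone 9 did (17.8%). Overlapping genes share peaks, and exons and introns were not distinguished. The proteases had the widest difference, with 62 normoxia and 202 hypoxia peaks over 3 genes, and all 3 reached a ratio of 2. The transcription regulators had the smallest, with 25 and 27 peaks over NR2F2 and MEF2A, and neither reached it. The roles hold few genes of unequal length, and differences between roles were not tested.

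**Figure D2:**
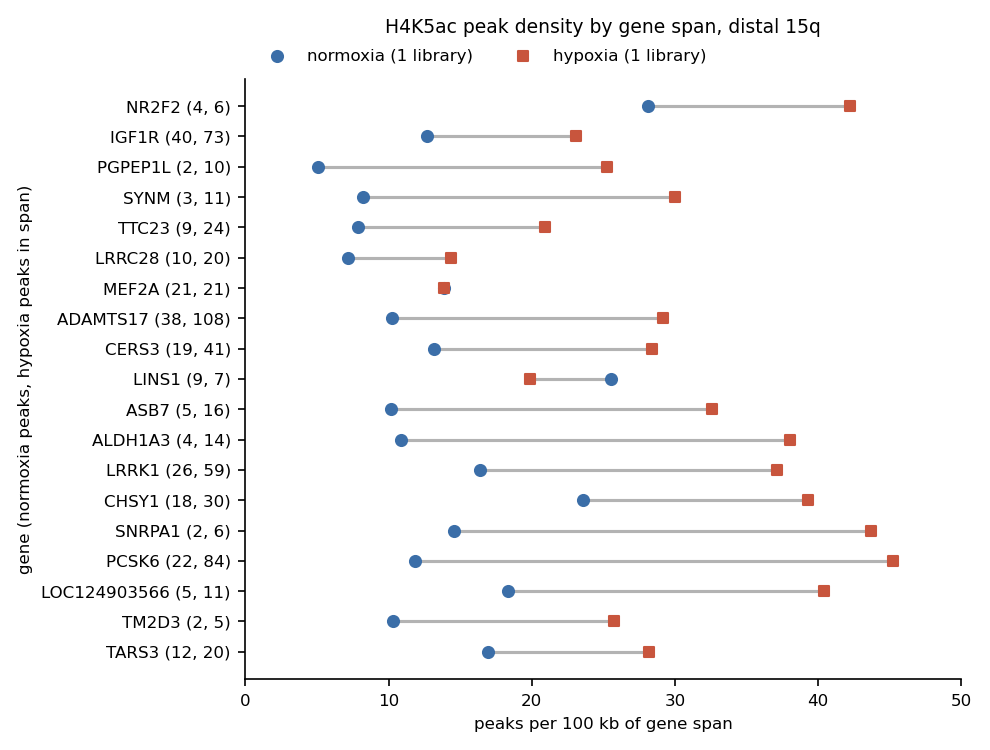
Peaks per 100 kb of gene span for the 19 coding genes with at least 5 hypoxia peaks, in order along the chromosome; circles are normoxia and squares hypoxia, 1 library each, with the numbers of peaks beside each name. MEF2A has 21 peaks in each list and LINS1 is the only gene with fewer in hypoxia (9 and 7), while PCSK6 reaches 45.2 per 100 kb from 11.8.

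NR2F2 (gene ID 7026, 96326046 to 96340263) encodes an orphan nuclear receptor of the COUP-TF family that acts in organ and vessel development. Its span held 4 normoxia and 6 hypoxia peaks, 2 and 3 of them strong. All 4 normoxia peaks were overlapped by the hypoxia list. The overlapping pair nearest a listed start site had a fold of 3.06 and a pileup of 104 reads in normoxia and a fold of 3.52 and 111 reads in hypoxia. The background there was 33.3 and 30.9 reads, far above the list medians, so a high pileup gave a low fold, and the pileups of this pair differed by 1.07 times.

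MEF2A (gene ID 4205, 99565417 to 99716488), a MADS-box transcription factor known from muscle and neuronal gene control, was the large gene without a difference in number. It held 21 peaks in each list, a ratio of 1.00 (0.520 to 1.92), and 13.9 per 100 kb in both. The upper bound lies below 2.37, the ratio of the whole region, and this difference was not tested. The peaks were not the same ones, since 12 of the 21 normoxia peaks overlapped a hypoxia peak and 9 did not. Most were weak. The start site peak, 142 reads in normoxia and 184 in hypoxia, with folds of 7.83 and 8.88, was the only strong normoxia peak, and 2 were strong in hypoxia. The background was at the bottom of the range, 3.16 and 3.24 reads, and 9 normoxia and 17 hypoxia peaks were at the lowest value of their list.

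IGF1R (gene ID 3480, 98648539 to 98964530) encodes the receptor tyrosine kinase for insulin-like growth factors. Its 316 kb span held 40 normoxia and 73 hypoxia peaks, a ratio of 1.83 (1.22 to 2.75), with 11 and 18 strong. The density was 12.7 and 23.1 per 100 kb and the median spacing 5504 and 2887 bp. Of the normoxia peaks 27 were overlapped, and 45 of the hypoxia peaks had no normoxia partner, 3 of them strong. Background medians over the gene were 13 reads for the normoxia and 8.41 for the hypoxia peaks, which are only partly the same sites. In most matched pairs of peaks within the gene the background was also lower in hypoxia, as at 7.366 kb after the start (18.6 and 8.3 reads). The pair at 305.744 kb went the other way (8.57 and 10.5 reads). At the start site the peak lay upstream, with summits 989 and 1003 bp before the start, pileups of 144 and 160 reads and folds of 3.87 and 4.31. The next shared peak had its summit 0.742 kb after the start, so the GC-rich window printed above lay between 2 marked flanks in both conditions. Further into the gene the pileups of matched pairs went both ways. They were 69 reads in normoxia and 96 in hypoxia at 127.069 kb after the start, but 66 and 27 at 226.035 kb.

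ADAMTS17 (gene ID 170691, 99971437 to 100341975) encodes a secreted metalloproteinase with thrombospondin motifs that acts in extracellular matrix assembly. Its 371 kb span held 38 normoxia and 108 hypoxia peaks, a ratio of 2.84 (1.95 to 4.23), with 9 and 31 strong. The density was 10.3 and 29.1 per 100 kb and the median spacing 6800 and 2360 bp. Of the 38 normoxia peaks 29 were overlapped by the hypoxia list. Of the 108 hypoxia peaks 78 had no normoxia partner, 12 of them strong, scattered over the whole gene body between the shared peaks. Background medians over the gene were 12.5 and 14.6 reads. The start site peak had 150 and 200 reads, with folds of 5.67 and 7.55, on the same background of 25.6 reads in both.

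PCSK6 (gene ID 5046, 101303933 to 101489707), the proprotein convertase also known as PACE4, which cleaves secreted precursors, had the largest ratio of the long genes. It held 22 normoxia and 84 hypoxia peaks, a ratio of 3.82 (2.36 to 6.41), with 7 and 19 strong. Nearly all of its normoxia peaks, 21 of 22, were overlapped, and 62 of the 84 hypoxia peaks were not, 3 of them strong. The median spacing was 5619 and 1407 bp. Background medians were 17.2 and 21.8 reads. Just upstream of the start site, overlapping peaks had 208 reads in normoxia and 281 in hypoxia (summits 262 and 267 bp before the start). In the overlapping pair just inside the gene the pileups were 282 and 277 reads.

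**Figure D3:**
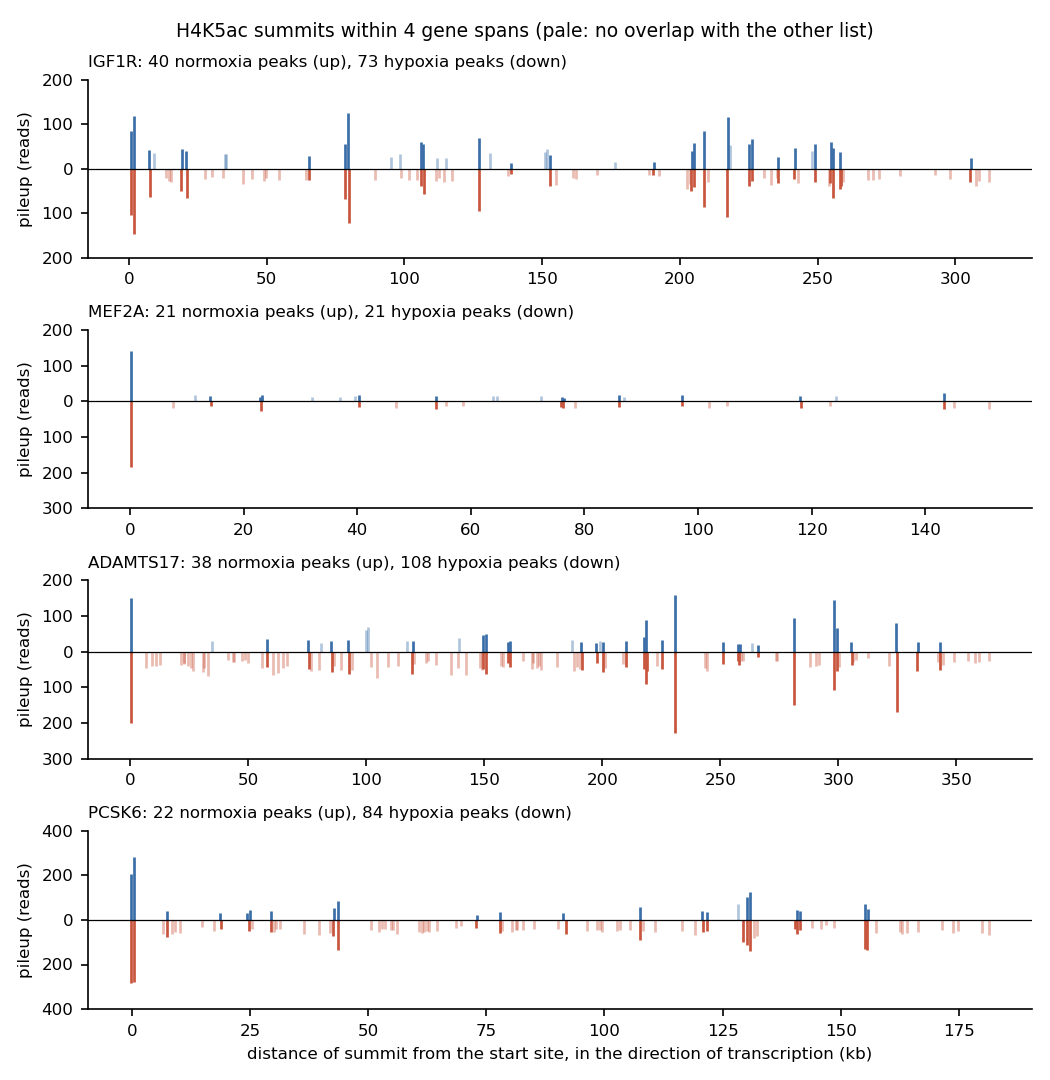
Summit pileups in reads along IGF1R, MEF2A, ADAMTS17 and PCSK6 by distance from the start site in kb; normoxia bars point up, hypoxia bars point down, and pale bars have no overlap with the other list. Tall bars mostly face each other in both directions, while in ADAMTS17 78 of 108 and in PCSK6 62 of 84 hypoxia bars are pale.

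The other genes are given by role. LRRK1, a leucine-rich repeat kinase, held 26 normoxia and 59 hypoxia peaks (ratio 2.27, 1.41 to 3.75), with 6 and 20 strong. Among the metabolic enzymes, CERS3, a ceramide synthase of the epidermal barrier, held 19 and 41. ALDH1A3, which makes retinoic acid from retinaldehyde, held 4 and 14, and the chondroitin synthase CHSY1 held 18 and 30, of which 3 and 15 were strong. All 3 enzymes had more hypoxia peaks, and CERS3 and ALDH1A3 reached a ratio of 2 (with 1 added), as did 39.3% of all coding spans with a peak. Of the 30 hypoxia peaks in CHSY1 14 had no normoxia partner, 7 of them strong, more than in any of the region's genes except ADAMTS17.

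Genes for RNA and protein handling held 21 normoxia and 46 hypoxia peaks over 5 genes, and 3 of the 5 reached a ratio of 2 (with 1 added). That ratio was reached by 15 of the 25 genes of the region and 39.3% of all coding spans with a peak. With so few genes per role, nothing about the roles is read from these counts. The ubiquitin ligase adaptor ASB7 held 5 and 16, SNRPA1, a protein of the U2 small nuclear ribonucleoprotein, 2 and 6, and SELENOS, a selenoprotein of the endoplasmic reticulum, 1 and 3. TARS3, which encodes a threonyl-tRNA synthetase, held 12 and 20, and the arrestin-domain gene ARRDC4 held 1 and 1. The 8 genes grouped as cytoskeletal and other held 40 and 82 peaks, and 5 of them reached a ratio of 2. Among these the intermediate filament gene SYNM held 3 and 11 and TTC23 held 9 and 24. LINS1 was the only gene of the region with fewer hypoxia peaks, 7 against 9, a ratio of 0.778 (0.246 to 2.35) that counting error does not separate from 1. The olfactory receptor genes OR4F6 and OR4F15 held 1 and 1 peak and 0 and 2 peaks.

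Most coding start sites were marked in both lists. A peak of both lists lay within 1000 bp of a start site for 22 of the 24 coding genes with a listed start (91.7%), against 71.7% of all such genes, and a strong peak of both for 20 (83.3%), against 63.2%. The 2 genes marked in hypoxia alone, PGPEP1L and OR4F15, make 8.33%, against 9.68% genome-wide. The PGPEP1L peak had a pileup of 21 reads and a −log10 q of 4.01, and the OR4F15 peak 20 reads and 7.64, so neither was strong. All 22 had a pair of overlapping peaks there, and in the pair nearest the start the pileup was higher in hypoxia for 19 of the 22 genes. These were 21 distinct pairs, with a median pileup ratio of 1.3. The same values over all start sites were not computed. Over the rest of the genome the hypoxia pileup was higher in 72.7% of peak pairs matched 1 to 1, with a median ratio of 1.27. The pileups were 50 reads in normoxia and 119 in hypoxia at SYNM, 191 and 275 at SELENOS and 323 and 381 at SNRPA1. The pileup was lower in hypoxia at TTC23 (90 and 57), LINS1 (223 and 188) and LOC124903566 (282 and 277). At the neighbouring starts that face 2 of these, it was higher, with 44 and 77 reads at LRRC28 and 182 and 187 at ASB7. LOC124903575 and ALDH1A3 shared 1 pair (278 and 304 reads), so these genes are not independent.

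Start sites of long non-coding RNAs were marked in a smaller share than those of coding genes. Of 44 such genes, 21 were marked in both lists (47.7%, against 33.9% of all), 9 in hypoxia alone (20.5%, against 13.9%), 1 in normoxia alone and 13 in neither. The 9 were SPATA8-AS1, SPATA8, LINC02254, LINC00923, LOC105371009, LRRK1-AS1, LOC124903565, LOC100507472 and LINC02348. The first 4 lie in the normoxia gap, with pileups of 25, 21, 14 and 20 reads. None of the 9 peaks was strong, and the gene marked in normoxia alone was LOC440313 (46 reads), whose peak overlaps a hypoxia peak of 80 reads just beyond the 1000 bp. Among those marked in both, LUNAR1, known from T-cell leukaemia, had 171 and 202 reads, IRAIN, antisense to IGF1R, 119 and 146, and CERS3-AS1 45 and 120.

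Most strong peaks of the region were present in both lists, and peaks of 1 list were mostly weak. Of the normoxia peaks 358 of 468 (76.5%, 72.4 to 80.3%) overlapped a hypoxia peak by at least 1 bp, leaving 23.5% without overlap, against 31.3% of the whole list. Of the hypoxia peaks 375 of 1110 (33.8%, 31.0 to 36.7%) overlapped a normoxia peak, leaving 66.2%, against 67.3% of the whole list. Of strong normoxia peaks 3 of 108 (2.78%) had no overlap, against 1.66%. Of strong hypoxia peaks 63 of 276 (22.8%, 18.0 to 28.2%) had none, against 13.4%. In distal 14q 71.7% and in 11q13 70% of strong hypoxia peaks were overlapped, against 77.2% here and 86.4% over the rest of chromosome 15. Of the 63 in distal 15q, 53 lay between 100 and 101.75 Mb, the stretch with the highest background.

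Overlap followed strength in both lists. Of hypoxia peaks with a −log10 q under 3, 6.25% were overlapped, and the share was 16.5% from 3 to 5, 25.6% from 5 to 10 and 61.0% (52.9 to 68.8%) from 10 to 20. The last of these lay below the 72.6% of the whole hypoxia list, and above 20 the region and the list were close, with 95.5% from 20 to 50 and 100% beyond. Normoxia peaks were overlapped more often than the list at low strength, with 64.3% (54.9 to 73.1%) under 3 and 66.9% (58.7 to 74.4%) from 3 to 5, against 46.3% and 57.7%. Peaks of hypoxia alone had a median width of 281 bp and a median pileup of 27 reads, against 467 bp and 51 reads for overlapped ones. Of these 735 peaks 3 (0.408%) lay within 1000 bp of a coding start site, against 28 of 375 overlapped peaks (7.47%). Of the 63 strong ones none did (exact interval 0 to 5.69%), and 39 of the 63 lay in a coding span, as did 50.3% of all hypoxia peaks, while spans fill 33.8% of the region.

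Summits stood closer in hypoxia. The median distance to the next summit was 6455 bp (5908 to 7406) in normoxia and 2859 bp (2574 to 3216) in hypoxia. Over the rest of the genome the medians were 9807 and 5657 bp, so the region was denser in both lists. Distances under 1 kb made up 16.9% in normoxia and 22.4% in hypoxia, against 17.2% and 17.0% over the rest of the genome. Between 100 and 101.75 Mb the medians were 5582 and 2077 bp. Few normoxia peaks were split in the hypoxia list, since 110 had no partner, 323 had 1 and 35 had 2 or more, whereas 735 hypoxia peaks had no normoxia partner.

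**Figure D4:**
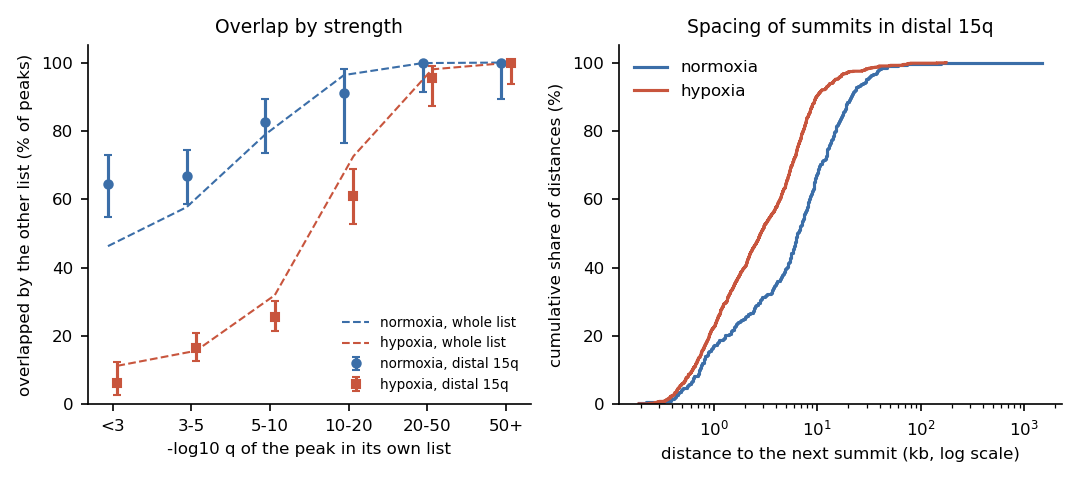
Left, the share of peaks overlapped by the other list by −log10 q in the own list, with points for distal 15q (exact 95% intervals) and dashed lines for the whole lists; right, the cumulative share of distances between neighbouring summits in kb on a log scale. Overlap increases from 6.25% to 100% with strength in the hypoxia list, and the hypoxia curve of distances lies to the left of the normoxia curve, with medians of 2859 and 6455 bp.

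Where 1 normoxia peak matched 1 hypoxia peak, the hypoxia summit was usually covered by more reads. In 292 such pairs the median ratio of pileups, hypoxia over normoxia, was 1.35 (1.3 to 1.40), and hypoxia was higher in 235 (80.5%). The ratio of the backgrounds in the same pairs was 1.03 (0.984 to 1.05), and the summits were 64.5 bp apart in the median. Over the rest of the genome the pileup ratio was 1.27 with 72.7% higher, over the rest of chromosome 15 it was 1.24 (1.21 to 1.25), in distal 14q 1.22 and in 11q13 1.49. Within distal 15q it was 1.26 (1.11 to 1.55) in 20 pairs below 97.75 Mb, 1.26 (1.12 to 1.42) in 64 pairs from there to 99.25 Mb, 1.40 (1.07 to 1.66) in the 35 pairs around MEF2A and 1.35 (1.31 to 1.43) in the 167 pairs between 100 and 101.75 Mb. In the 6 pairs beyond 101.75 Mb it was 1.44 (1.06 to 1.68). The estimated ratio of read totals, hypoxia over normoxia, was 1.18, or 1.04 if fragment lengths were equal, and the part of depth in these pileup ratios was not tested. Pairs have to pass the calling threshold in both lists and their ratios are therefore not those of all sites.

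**Figure D5:**
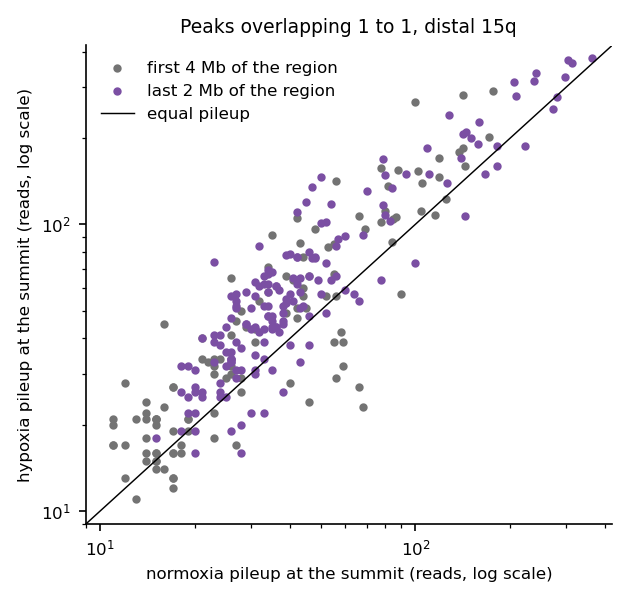
Pileup in reads at the summits of the 292 pairs of peaks that overlap 1 to 1, normoxia on the horizontal and hypoxia on the vertical axis, both on log scales; grey points lie in the first 4 Mb and purple points in the last 2 Mb of the region, and the line marks equal pileup. Most points, 235 of 292, lie above the line.

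The strongest peaks of the region were shared by both lists, and several lay at start sites. In normoxia the first by −log10 q was at the SNRPA1 start (101293948 to 101295876, 150 in −log10 q), followed by a peak 8046 bp from the ADAMTS17 start (100348998 to 100350769, 135) and the TM2D3 start peak (101651716 to 101653339, 134). In hypoxia the SNRPA1 peak (101294523 to 101295885) was again first, at 234. A peak across the end of the TARS3 span at 101724473 (101723812 to 101724863) followed at 225. TARS3 has no listed start, so whether this is a start site peak was not assessed. An intergenic peak 45661 bp from the SYNM start (99059073 to 99059791) came next at 210. The strongest peaks without a partner were much weaker. In hypoxia they were 101781388 to 101782023 outside coding spans (22.9), 100972994 to 100974111 in LRRK1 (22.5) and 101179427 to 101179831 in CHSY1 (21.9). In normoxia the 3 strong ones were 100722621 to 100723400 outside coding spans (17.6) and a pair in ADAMTS17, 100241245 to 100241760 (14.2) and 100241813 to 100242422 (10.9).

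Relatives of these genes elsewhere in the genome gave mixed counts. The insulin receptor gene INSR held 4 normoxia and 12 hypoxia peaks, the receptor gene IGF2R 11 and 31, and INSRR 0 and 5, while the receptor substrates IRS1 held 8 and 7 and IRS2 7 and 9. MEF2C held 6 and 9, MEF2D 3 and 6 and MEF2B 1 and 3. NR2F1 held 3 and 2 and NR2F6 2 and 2. The proteases ADAMTS16 (15 and 44), ADAMTS6 (10 and 22), ADAMTS19 (5 and 10), ADAMTS10 (3 and 7) and ADAMTS18 (0 and 7) all held more hypoxia peaks, and 4 of these 5 reached a ratio of 2 (with 1 added), a rule met by 39.3% of all coding spans with a peak. With so few members, nothing is read from these counts. As a check of the cell type, 5 of 6 epithelial or squamous marker genes with a listed start carried a start peak in both lists, TP63 being the exception at its listed start. Of all coding genes with a listed start 71.7% did, so this count alone says little about the cell type. Of the 4 marker genes of other cell types with a listed start, 0 carried one in normoxia and 1, TNNT2, in hypoxia. A further 4 of 10 epithelial or squamous and 6 of 10 other markers had no listed start and could not be checked this way. By span the 10 epithelial or squamous genes held 58 normoxia and 98 hypoxia peaks, but KRT14 held 0 and 0. The 10 other markers held 28 and 73, of which VWF held 18 and 48, so the check rests on the few listed starts alone and is weak.

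The members nearest the limit at 96 Mb were as follows. The last normoxia peak outside lay 34.4 kb before the limit (95965543 to 95965788, pileup 11 reads, −log10 q of 2.08), and the first inside 26.8 kb after it (96026521 to 96027010, 42 reads, 26.4). The last hypoxia peak outside lay 27.2 kb before (95972508 to 95972985, 18 reads, 5.47) and the first inside 13.6 kb after (96013456 to 96013736, 19 reads, 7.35).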

How the data were processed

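H4K5ac ChIP-seq peaks from FaDu cells were analysed from 1 deposited peak list per library. MACS2, SICER and hg38 are named in the submitters' processing notes. Which versions, settings and input control were used is not given in the sources used here. For every deposited peak the authors gave its position, a score, the fold enrichment at the summit (a linear ratio), the −log10 of its p-value and q-value, and the summit's offset. The deposited score was not used. Fold and p-value were solved for pileup and background (fold = (pileup + 1) / (background + 1), with p as a Poisson tail probability). The recovered pileup was a whole number, to within 0.02, in 100% of normoxia and 99.9992% of hypoxia peaks, and the solver was tested on simulated data.

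Total reads are not stated, and depth is known only through the estimates in the text. The members, gene lists and settings were chosen with earlier results of these data known. Named genes are all coding genes whose RefSeq span overlaps the region, family members listed by name, and the 3 strongest peaks per list with and without a partner. Spans, start sites and sequences are RefSeq GRCh38.p14. Of the 25 genes 24 had a listed start (TARS3 is the exception), and that of NR2F2 lies inside its span. A start was marked by a peak within 1000 bp, and pileups there were compared in the pair of overlapping peaks nearest the start. Ratios carry conditional exact binomial intervals, shares Clopper-Pearson intervals and medians intervals from order statistics. Peaks are not replicates. Alternatives were list length, thresholds, overlap rules, stitching at 500 bp, bin size, pseudocount and region limits. Python 3.11.15, numpy 2.4.6, pandas 2.3.3, scipy 1.17.1 and matplotlib 3.10.9 were used.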

Additional observations from a re-analysis of the deposited data

How the results depend on the processing

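Of 61 alternative values of 11 results, 34 stayed within the counting interval of the main value, or within 1.5 times for counts of bins and genes, and 27 did not. The covered length ratio has no interval, and any change in its first 3 digits is counted among the 27. Some of the 34 could not move, so the tally is no measure of stability. Limiting the hypoxia list by strength keeps all its strong peaks (ratio 2.56) and leaves the normoxia spacing at 6455 bp. The ratio of peak numbers at a −log10 q of at least 10 is the strong peak ratio itself. With the hypoxia list limited to the length of the normoxia list, the ratio of peak numbers was 1.45, the ratio of covered length 1.40, the overlapped share 65.2% of normoxia and 46.5% of hypoxia peaks, the hypoxia spacing 4750 bp, and 5 bins and 8 gene spans reached a ratio of 2. With a −log10 q of at least 10 in both lists, these were 1.79 for covered length, 90.7% and 39.5% for overlap, 22670 and 9134 bp for normoxia and hypoxia spacing, 10 bins and 9 gene spans. Strong peaks gave ratios of 3.27 at a −log10 q of 5 and 1.65 at 20, and 2.46 at a pileup of at least 30 reads, a setting chosen after seeing the data. The covered length ratio was 1.89 from 97 Mb, 1.87 without the last 500 kb and 1.96 after stitching, which also gave spacings of 8430.5 and 4550.5 bp. With an overlap of at least 50% of the shorter peak of the pair, 71.6% of normoxia peaks were overlapped. With summits within 200 bp, 62.4% of normoxia and 26.3% of hypoxia peaks were. Bins of 500 kb gave 10 bins, a pseudocount of 3 gave 9 gene spans, and shared peaks alone gave a relative hypoxia background of 2.05. The cause of these shifts was not tested beyond what each setting itself removes. The numbers of bins and gene spans at a ratio of 2 thus depend on list length and threshold. No paired analysis was possible because each condition had 1 library. For the same reason no replicate could be left out.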
